A study of Mus musculus with 12 samples.

Results

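The nuclear genes for the subunits of the 5 oxidative phosphorylation complexes were followed across 12 RNA libraries of picked retinal cells. Members were the protein-coding genes whose mouse symbols begin with the family names of the subunits (Nduf with A, B, C, S or V and a digit, Sdha to Sdhd, Uqcr, Cyc1, Cox4 to Cox8 with a, b or c, and Atp5), without pseudogenes. The rule found 84 of the 54232 genes in the count table, of which 37 belonged by name to complex I, 4 to complex II, 9 to complex III, 16 to complex IV and 18 to complex V. The rule goes by name and gene type. It leaves out Cox4i1, Cox4i2 and Ndufab1, whose names do not match it, and 12 matching entries that are annotated as pseudogenes or a non-coding RNA. It places Ndufa4 with complex I by its name, although the protein is now counted with complex IV, and it takes in 2 Ensembl entries for Atp5o, 1 of which had 0 counts throughout.

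The study injected adeno-associated virus of serotype 2 into the vitreous of adult male wild-type mice and crushed the optic nerve, which cuts the axons of retinal ganglion cells. Its cargo was the gene for Olig1, a DNA-binding regulator best known from oligodendrocytes, or the fluorescent reporter GFP in the controls, and the labels record 14 days of virus for every library, whether 7 or 14 days had passed since the crush. The interval between injection and crush may therefore differ between the days, and it cannot be told apart from the day. Fluorescent cells labelled as ganglion cells were enriched with beads against CD90.2, and a few were picked into each tube. The groups were Olig1 at day 14 after the crush, GFP at day 14, Olig1 at day 7 and GFP at day 7, with 3 libraries each. Every group, controls included, thus had the crush and a virus injection, no uninjured or uninjected group was analysed here, and the promoter that drives the virus is not given in the sources used here. Nothing in the labels ties the 3 libraries of a group to different animals, and a p-value therefore reflects the library-to-library spread, which may be technical. The labels also speak of batches of libraries without assigning any, so batch and group cannot be told apart.

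Oxidative phosphorylation is the main source of ATP in neurons and photoreceptors. Complexes I and II pass electrons from NADH and succinate to ubiquinone, complex III passes them on to cytochrome c, and complex IV hands them to oxygen. Complexes I, III and IV pump protons, and complex V, the ATP synthase, makes ATP from their return. Complexes I, III, IV and V include subunits that mitochondria encode themselves, so nuclear and mitochondrial genomes both supply parts, while complex II is wholly nuclear. Ganglion cells carry much ATP demand in their unmyelinated axons, and inherited defects of complex I in humans lead to optic nerve disease.

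Promoters of the family are known for sites of the factors NRF1 and GABPA (also called NRF2). RefSeq windows on GRCm38.p6, from 250 bases before to 50 bases after each listed start, were found for 66 of the 84 members, and a gene with several listed starts was counted once if any window held a motif. The NRF1 letters GCGCANGCGC, read on both strands, stood in 25.8% of the 66 members and in 7.17% of 17492 protein-coding genes. The GABPA letters CCGGAAG, read on both strands, stood in 24.2% of members and in 12.9% of protein-coding genes, and the YY1 letters AAGATGG in 15.2% and 7.18%. At least one of the NRF1 and GABPA motifs stood in 43.9% of members and in 18.6% of protein-coding genes. By complex, this share was 34.4% of 32 genes for complex I, 23.1% of 13 for complex IV and 69.2% of 13 for complex V. These letters are a description and not a measured binding site. The windows of 4 members on which later results turn are given 5′ to 3′ on the gene's own strand, with motif letters in capitals. Atp5g3 (chr2:73911277-73911576, minus strand) and Cox6a1 (chr5:115348909-115349208, minus strand) hold NRF1 letters, 1 and 2 times, and Cox6a1 also holds GABPA letters once. Sdhb (chr4:140961021-140961320, plus strand) holds GABPA letters once, and Cox7b (chrX:106015450-106015749, plus strand) holds none of the 3 motifs.
Atp5g3: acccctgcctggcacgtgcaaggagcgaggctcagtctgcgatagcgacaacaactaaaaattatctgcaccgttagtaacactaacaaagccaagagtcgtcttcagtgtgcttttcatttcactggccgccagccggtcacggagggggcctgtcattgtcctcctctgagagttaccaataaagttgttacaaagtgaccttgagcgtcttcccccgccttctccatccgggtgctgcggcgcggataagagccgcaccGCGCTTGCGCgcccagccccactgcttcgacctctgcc
Cox6a1: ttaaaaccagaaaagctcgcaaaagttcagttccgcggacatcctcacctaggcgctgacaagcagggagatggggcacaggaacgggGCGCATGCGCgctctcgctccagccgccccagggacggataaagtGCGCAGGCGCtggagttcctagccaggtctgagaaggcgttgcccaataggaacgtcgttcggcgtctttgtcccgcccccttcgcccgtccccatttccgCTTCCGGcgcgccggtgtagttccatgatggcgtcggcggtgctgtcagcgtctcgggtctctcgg
Cox7b: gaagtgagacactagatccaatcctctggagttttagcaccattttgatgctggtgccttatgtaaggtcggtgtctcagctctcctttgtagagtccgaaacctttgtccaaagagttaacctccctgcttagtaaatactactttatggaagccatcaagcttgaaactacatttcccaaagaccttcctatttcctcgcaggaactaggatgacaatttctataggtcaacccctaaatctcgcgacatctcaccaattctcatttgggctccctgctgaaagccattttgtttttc
Sdhb: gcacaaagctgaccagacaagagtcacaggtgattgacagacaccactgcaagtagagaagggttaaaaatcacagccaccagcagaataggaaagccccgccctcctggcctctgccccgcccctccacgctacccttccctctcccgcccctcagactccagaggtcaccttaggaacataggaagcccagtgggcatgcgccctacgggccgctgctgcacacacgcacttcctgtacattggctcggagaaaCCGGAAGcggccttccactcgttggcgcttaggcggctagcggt

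Total counts ran from 12534515 to 27602459 per library, and levels are given as CPM, the count divided by the library's total and scaled to 1000000. A gene without a count could thus lie at up to 0.109 to 0.239 CPM, for counting error only. The vector's gene, Olig1, stood at 56.4 to 520 CPM with Olig1 and 0 to 0.251 CPM with GFP at day 14, and at 249 to 1030 and 0 to 0.351 CPM at day 7. Markers of other cell types were abundant: Müller glia markers summed to 46850 to 145600 CPM in all 12 libraries. Ganglion cell markers summed to 158, 3131 and 152 CPM in Olig1 and 198 to 424 CPM in GFP libraries at day 14. In Olig1 at day 14 only replicate 2 thus lay above the GFP libraries, and replicates 1 and 3 lay below them. At day 7 these markers summed to 1744 to 3957 CPM in Olig1 and 188 to 296 CPM in GFP libraries. The ganglion cell gene Pou4f2 had 0 counts in both GFP groups, and Pou4f1 and Slc17a6 had 0 in GFP at day 14. Rod markers summed to 864 to 10760 CPM in Olig1 and 3421 to 46630 CPM in GFP at day 14, and to 545 to 786 CPM in Olig1 and 10450 to 53420 CPM in GFP at day 7. In GFP at day 14, plasma cell genes summed to 132500 CPM in replicate 3. In bulk pools, fewer cells of a type and less RNA per cell cannot be told apart.

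Together the 84 genes took 1.69% to 3.98% of all counts. Their summed level was lowest in GFP at day 7 and lay in a similar range in the other groups. It was 28400, 31280 and 27760 CPM in Olig1 at day 14, 30820, 31070 and 22950 CPM in GFP at day 14, 23060, 26190 and 39760 CPM in Olig1 at day 7, and 20980, 16880 and 20400 CPM in GFP at day 7. In this CPM by total counts, no GFP day 7 library reached any library of the other groups, and Olig1 day 7 replicate 3 held the highest sum. Means were 29140 ± 1876 CPM in Olig1 at day 14, 28280 ± 4616 in GFP at day 14, 29670 ± 8880 in Olig1 at day 7 and 19420 ± 2223 in GFP at day 7 (SD, n = 3 each). With TMM-scaled library sizes (the trimmed-mean scaling used in the tests) GFP at day 7 was again lowest, with sums of 18960 to 38880 CPM in Olig1 and 16800 to 16960 CPM in GFP at day 7. The highest sum then lay in Olig1 day 7 replicate 2, at 38880 CPM, while replicate 3 stood at 32650 CPM. Sums over the members were not tested.

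**Figure D1:**
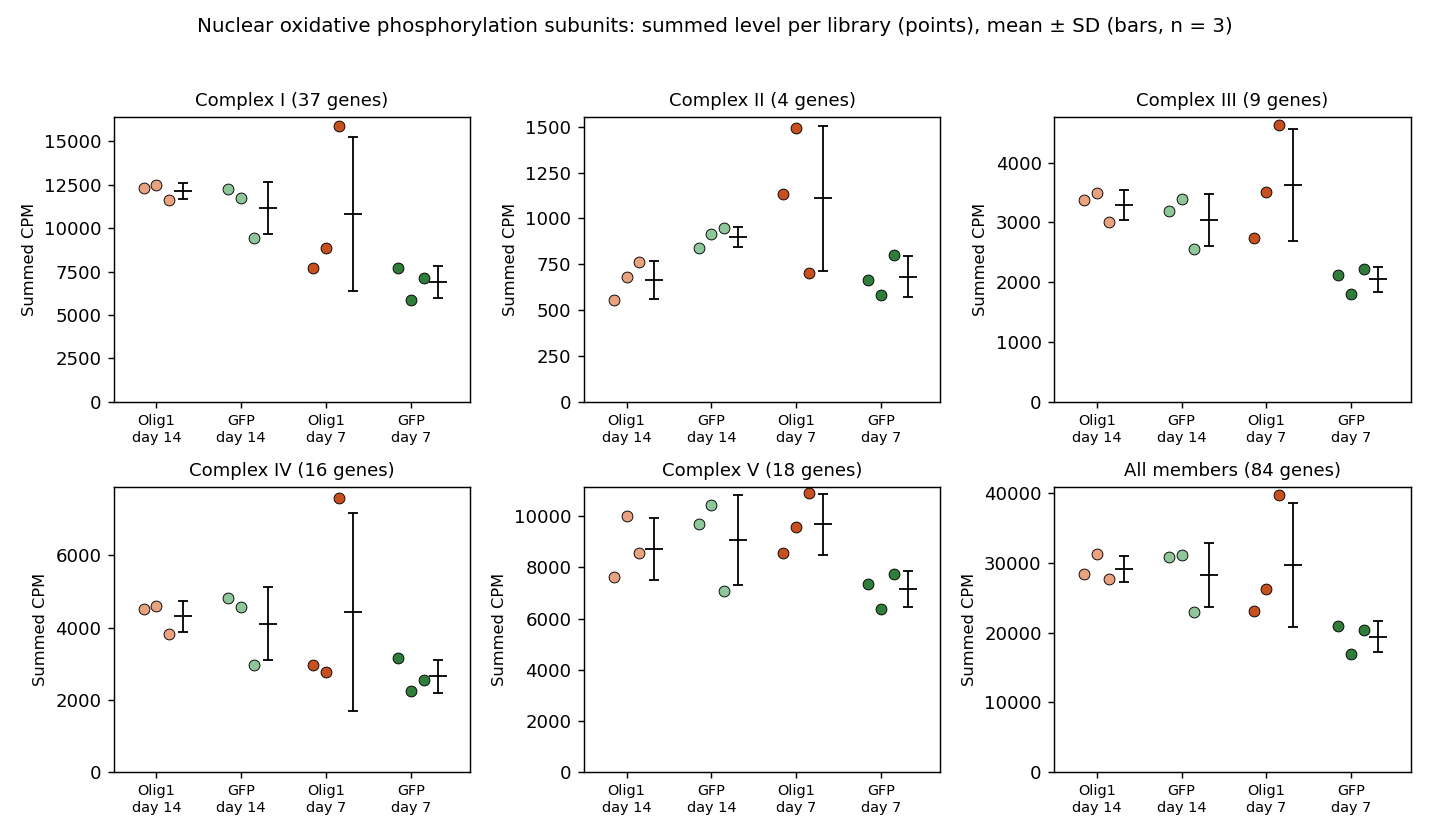
Summed CPM of the members of each complex and of all 84 members (vertical axis, linear from 0) in each of the 12 libraries (points), with the mean and SD of 3 libraries beside them. In complexes III and V and in all members together, each GFP day 7 library lies below each Olig1 day 7 library.

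Summed by complex in CPM by total counts, Olig1 and GFP at day 7 lay apart for complexes III and V and overlapped for complexes I, II and IV. Sums by complex depend on the scaling and are not given with TMM. Complex III summed to 2746, 3507 and 4623 CPM with Olig1 and to 2122, 1807 and 2213 CPM with GFP at day 7. Complex V summed to 8556, 9577 and 10920 CPM with Olig1 and to 7344, 6374 and 7738 CPM with GFP. In both, the lowest Olig1 library exceeded the highest GFP library. Complex I summed to 7680, 8847 and 15910 CPM with Olig1 and to 7703, 5882 and 7107 CPM with GFP, and complex IV to 2949, 2760 and 7602 CPM with Olig1 and to 3154, 2231 and 2543 CPM with GFP. For complex I the overlap was slight, and in both Olig1 day 7 replicate 3 was well above all others. Complex II, the smallest, ran the other way in that library, with 702 CPM, against 1131 and 1495 CPM in the other two Olig1 day 7 libraries and 662, 583 and 802 CPM with GFP. At day 14, complex II summed to 557, 678 and 763 CPM with Olig1 and to 837, 912 and 946 CPM with GFP, without overlap and with GFP higher. As shares of the members' sum, complex I took 33.3% to 43.4%, complex II 1.77% to 5.71%, complex III 10.1% to 13.4%, complex IV 10.5% to 19.1% and complex V 26.8% to 37.9%.

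Levels of different genes were compared per length of exon. Cox8a, a small subunit of complex IV, had the highest level per kilobase of all members, 1400 CPM per kb over the 12 libraries (SD 610), at percentile 99.7 of the genes tested. The highest of the other complexes were Uqcr10, a small subunit of complex III, at 634 (SD 261), Atp5c1, the central stalk of the ATP synthase, at 534 (SD 262), Ndufc2, a membrane-arm subunit of complex I, at 488 (SD 269), and Sdhd, a membrane anchor of complex II, at 168 CPM per kb (SD 130). Uqcr10, Atp5c1 and Ndufc2, neighbours in that order, differed by less than their spread over libraries. A total of 76 members were counted in every library, and 2 had 0 counts in all: Cox8c, a testis isoform, and the second Atp5o entry. Among the 76, the highest library was 2.46 times the lowest for Atp5d and 21.5 times for Atp5s.

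Which subunits differed between Olig1 and GFP at day 7 was asked first. Of the 81 members that passed the filter on low counts, 71 had a higher fitted level with Olig1 and 0 passed the test (edgeR quasi-likelihood test, Benjamini-Hochberg adjusted p under 0.05 over 14985 genes). Among all genes 0.227% passed. The median log2 fold change of the members was 0.95, beside -0.03 over all genes tested. At an unadjusted p under 0.05 there were 32 members, 31 of them higher with Olig1, which is 39.5% of those tested beside 13.9% of all genes. The shares of all genes, here and below, were not limited to genes of similar level or spread. In CPM, the lowest Olig1 library exceeded the highest GFP library for 23 members, beside 9.4% of all genes, and the reverse held for 1 member, Ndufv1, beside 9.01% of all genes. By DESeq2, 6 members passed (Sdhb, Atp5g3, Ndufs4, Atp5j, Cox7b and Uqcrq), 7.41% of them beside 6.21% of all genes. By limma voom 2 passed (Cox6a2 and Cox7b2), 2.47% beside 2.87% of all genes. The DESeq2 and limma voom shares were near those of all genes. Cox6a2 and Cox7b2 passed the low-count filter through the Olig1 day 7 libraries only, so a difference there was built into their inclusion. They are among the 71, the 32 and the 23 members counted above.

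**Figure D2:**
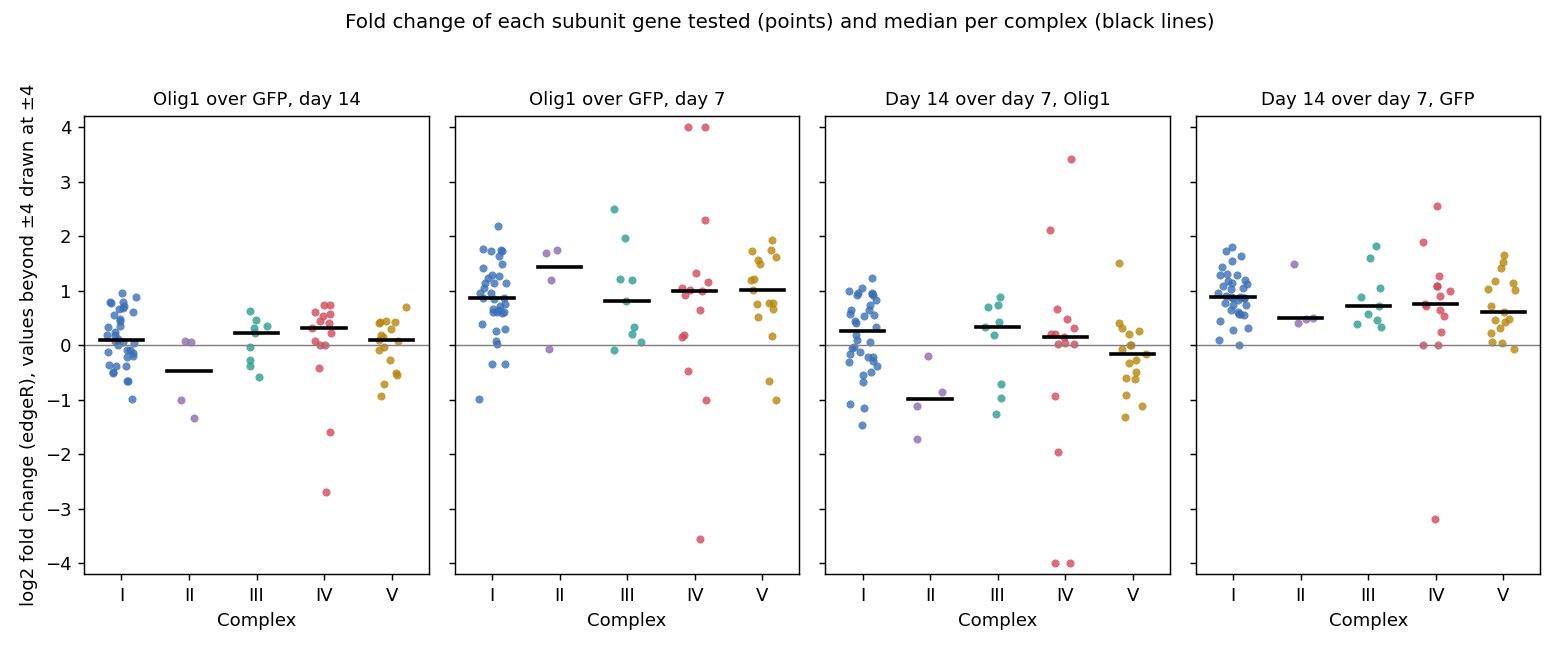
Log2 fold change from edgeR (vertical axis) of each member tested (points, by complex on the horizontal axis) in 4 comparisons, with the median of each complex as a black line; values beyond 4 in either direction are drawn at 4. Points lie mostly above 0 for Olig1 over GFP at day 7 (71 of 81) and for day 14 over day 7 in GFP (77 of 81), and on both sides of 0 in the other 2 panels; no single gene passed the adjusted threshold in any panel.

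In complex I, 33 of 36 tested members had a higher fitted level with Olig1 at day 7, with a median of 0.86. Ndufs4, an accessory subunit near the NADH-oxidising module whose loss in mice causes a Leigh-like disease, stood at 166, 232 and 278 CPM with Olig1, against 112, 62.4 and 71.9 CPM with GFP. Each Olig1 library was above each GFP library, and the log2 fold change was 1.74 ± 0.53 (SE; edgeR adjusted p = 0.215). Ndufa8, an intermembrane-space subunit, stood at 349, 441 and 611 CPM with Olig1, against 255, 69.0 and 198 CPM with GFP. It too did not overlap, at 1.72 ± 0.56 (edgeR adjusted p = 0.245). Ndufv1, which carries the flavin that takes electrons from NADH, lay the other way, at 148, 51.5 and 194 CPM with Olig1 and 290, 262 and 261 CPM with GFP. Its log2 fold change was -0.99 ± 0.45 (edgeR adjusted p = 0.345).

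In complex II, 3 of 4 members had a higher fitted level with Olig1 at day 7. Sdhb, the iron-sulfur subunit that leads electrons from the flavin to ubiquinone, stood at 458, 477 and 307 CPM with Olig1, against 170, 75.4 and 227 CPM with GFP. The groups did not overlap (1.74 ± 0.51, edgeR adjusted p = 0.203). Sdhc, a membrane anchor, stood at 99.6, 251 and 105 CPM with Olig1, against 66.6, 87.4 and 32.1 CPM with GFP (1.69 ± 0.76, edgeR adjusted p = 0.335). Sdha, the flavoprotein that oxidises succinate, stood at 470, 98.1 and 150 CPM with Olig1, against 306, 158 and 342 CPM with GFP. The highest and the lowest of these 6 libraries were both from Olig1, and the log2 fold change was -0.07 ± 0.54 (edgeR adjusted p = 0.982).

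In complex III, 8 of 9 members had a higher fitted level with Olig1 at day 7. Uqcrq, a small accessory subunit, had the smallest p of the members counted in every library. It stood at 259, 1283 and 847 CPM with Olig1, against 219, 133 and 226 CPM with GFP (2.50 ± 0.63, edgeR adjusted p = 0.136). Olig1 day 7 replicate 1 lay only slightly above the GFP libraries, and without it Uqcrq passed the test, 1.23% of the members beside 0.109% of all genes. Uqcrfs1, the Rieske iron-sulfur protein, stood at 179, 761 and 300 CPM with Olig1, against 108, 168 and 160 CPM with GFP (1.97 ± 0.65, edgeR adjusted p = 0.246).

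In complex IV, 12 of 15 tested members, Cox6a2 and Cox7b2 among them, had a higher fitted level with Olig1 at day 7, with a median of 1.00. Cox7b, a small accessory subunit, stood at 167, 668 and 327 CPM with Olig1, against 94.6, 115 and 113 CPM with GFP. The groups did not overlap (2.30 ± 0.68, edgeR adjusted p = 0.203). Cox6a1, the widely expressed form of subunit 6a, stood at 201, 386 and 633 CPM with Olig1, against 283, 151 and 148 CPM with GFP, and overlapped (1.33 ± 0.52, edgeR adjusted p = 0.286).

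In complex V, 15 of 17 tested members had a higher fitted level with Olig1 at day 7, with a median of 1.02. Atp5g3, which encodes the c subunit of the rotating ring, stood at 682, 1272 and 1298 CPM with Olig1, against 426, 401 and 393 CPM with GFP. The 3 GFP libraries were close to each other and all below the Olig1 libraries (1.72 ± 0.46, edgeR adjusted p = 0.165). Atp5j, coupling factor 6 of the peripheral stalk, stood at 514, 1044 and 1176 CPM with Olig1, against 346, 319 and 337 CPM with GFP (1.75 ± 0.48, edgeR adjusted p = 0.181). Atp5j shares 397 exon bases with Gabpa on the opposite strand, and the strand setting of the counting is not given in the sources used here.

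Marker lists of several cell types also differed in level between these groups at day 7. Higher with Olig1 in fitted level were 8 of 9 tested ganglion cell markers (median log2 fold change 4.97, 0 called) and 8 of 8 amacrine markers (median 3.25, 2 called). Lower were 10 of 10 rod markers (median -4.94, 1 called), 8 of 9 bipolar markers (median -2.94, 1 called), 7 of 7 cone markers (median -5.56, 0 called), 7 of 9 Müller glia markers (median -1.89, 0 called) and 4 of 4 astrocyte markers (median -3.67, 0 called). Their part in the subunit values was not tested.

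How far the subunits stood out from all genes at day 7 depended on the method. The 32 members at an unadjusted p under 0.05 became 14 with limma voom, 17.3% beside 17.7% of all genes, and 12 when the other groups were left out of the fit, 15.0% beside 13.7%. With limma voom the median of the members was 0.55 beside 0.20 for all genes. The count became 19 with total-count scaling (23.5% beside 12.5%), 20 without GFP day 7 replicate 1 (24.7% beside 11.1%) and 21 without GFP day 7 replicate 3 (25.9% beside 12.2%). Between 60 and 72 of 81 members had a higher fitted level when any 1 library was left out.

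**Figure D3:**
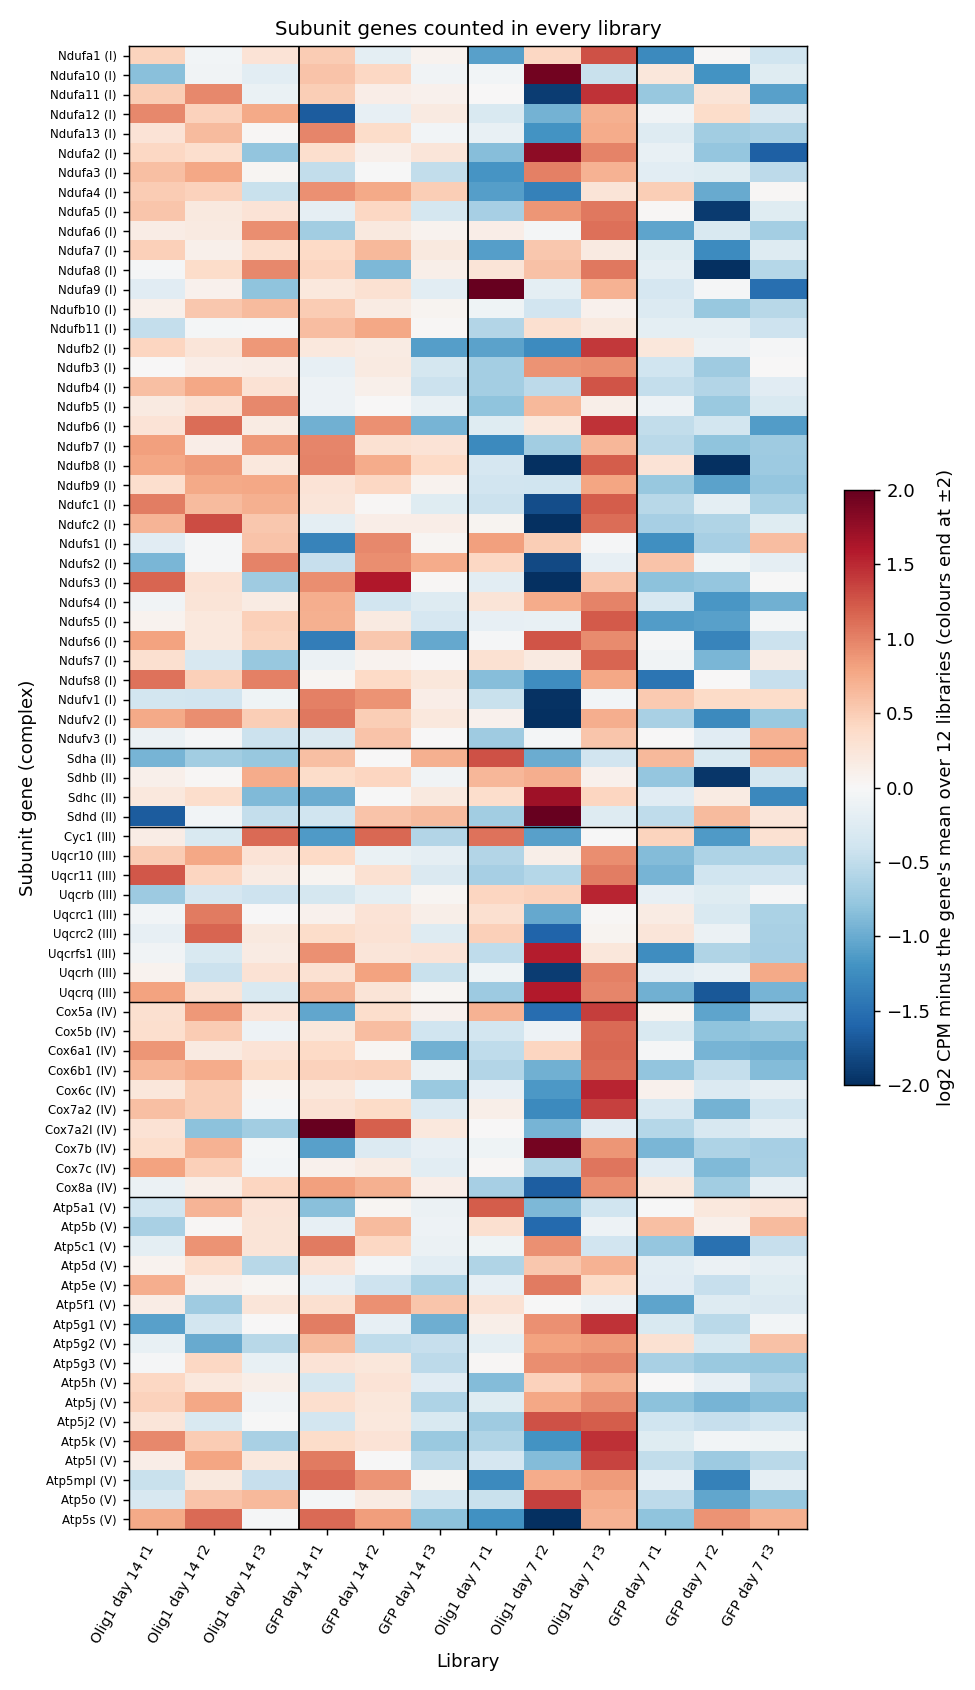
Log2 CPM of the 76 members counted in every library, minus each gene's own mean over the 12 libraries (colour scale, ending at 2 in either direction), with libraries along the horizontal axis and genes, grouped by complex, down the vertical axis. Olig1 day 7 replicate 3 is red across most genes, Olig1 day 7 replicate 2 holds strongly red and strongly blue cells side by side, and the GFP day 7 libraries are mostly blue.

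The 3 Olig1 day 7 libraries did not show the same subunit profile. In CPM by total counts, replicate 3 held the highest value of all 12 libraries for 34 of 76 members and the lowest for 0. Replicate 2 held the highest for 12 and the lowest for 26. Across the 76 members, its log2 CPM correlated at r = 0.581 with the mean of the other 11 libraries, whereas the others ranged from 0.821 to 0.938, given as a description across genes that are not independent. Uqcrq, Cox7b and Sdhd were highest in replicate 2, while Ndufv1, Ndufv2 and Ndufc2 were lowest there. Without replicate 2, 69 of 81 members had a higher fitted level with Olig1 at day 7 and the median log2 fold change was 0.78. The median biological coefficient of variation, the spread between libraries beyond counting noise in the edgeR model, was 0.616 for the members, 0.659 for 1319 genes with a mean of at least 100 CPM and 1.34 for all genes.

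At day 14 the fold changes of Olig1 over GFP lay on both sides of 0. Of 81 members, 49 had a higher fitted level with Olig1 and 30 a lower one, while Cox6a2 and Cox7b2 had 0 counts in both groups. The median was 0.09 and equal to that of all genes (0.09), and 0 passed edgeR's test, beside 0.04% of all genes. At an unadjusted p under 0.05 there were 3, all lower with Olig1 and fewer as a share than the 10.4% of all genes. DESeq2 and limma voom called 0, beside 5.01% and 0.367% of all genes. Libraries did not overlap with Olig1 higher for 10 members, beside 7.78% of all genes, and with Olig1 lower for 5, beside 4.12%. The 3 with the smallest p were Cox7a2l, Sdha and Ndufv1, and each was lower with Olig1. The count of 3 became 1 without GFP day 14 replicate 1 or any Olig1 day 14 library (1.23% beside 7.02% to 9.43% of all genes). With only these 2 groups it became 5, and the share was then above that of all genes (6.33% beside 4.89%). At day 14, 8 of 8 amacrine markers had a higher fitted level with Olig1 (2 called), and 9 of 9 bipolar (1 called), 10 of 10 rod (0 called) and 9 of 9 microglia and macrophage markers (0 called) a lower one. Microglia and macrophage markers summed to 2.13 to 4.202 CPM in Olig1 and 0.471 to 6844 CPM in GFP, and the part of these cell types in the subunit values was not tested.

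Sdha stood at 102, 120 and 115 CPM with Olig1 and 296, 195 and 319 CPM with GFP at day 14. The groups did not overlap (-1.34 ± 0.55, edgeR adjusted p = 0.438). Sdhd stood at 53.3, 163 and 122 CPM with Olig1 and 128, 250 and 263 CPM with GFP, and overlapped (-1.01 ± 0.82, edgeR adjusted p = 0.863). Ndufv1 stood at 156, 154 and 189 CPM with Olig1 and 407, 374 and 222 CPM with GFP, below it in every library as at day 7 (-0.99 ± 0.45, edgeR adjusted p = 0.456). Cox7a2l, which joins complexes III and IV into supercomplexes, stood at 188, 87.2 and 95.1 CPM with Olig1 and 640, 353 and 178 CPM with GFP. One Olig1 library was above one GFP library, and the fold change was -1.59 ± 0.52 (edgeR adjusted p = 0.438). Atp5f1, the b subunit of the peripheral stalk, stood at 786, 433 and 837 CPM with Olig1 and 885, 1344 and 1048 CPM with GFP (-0.72 ± 0.45, edgeR adjusted p = 0.701). Atp5f1 shares 337 exon bases with Wdr77 on the opposite strand.

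Of the members named for day 14, Ndufa12 had the largest fold change toward Olig1. Ndufa12, an accessory subunit of the matrix arm of complex I, stood at 460, 326 and 401 CPM with Olig1 and 74.8, 213 and 268 CPM with GFP, without overlap (0.96 ± 0.57, edgeR adjusted p = 0.672). The remaining members with the smallest p of their complex were Uqcr11 at 0.63 ± 0.51, Uqcr10 at 0.47 ± 0.47, Cox6a1 at 0.60 ± 0.52 and Atp5mpl, a small ATP synthase proteolipid, at -0.93 ± 0.60 (edgeR adjusted p from 0.727 to 0.945). All 4 overlapped between the groups.

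Over the mean of both days, 67 of 81 members had a higher fitted level with Olig1, with a median of 0.54 beside 0.06 for all genes. Among the 67 are Cox6a2 and Cox7b2, whose direction was built into their inclusion, as they passed the low-count filter through Olig1 day 7 only. Again 0 passed edgeR's test, beside 0.654% of all genes, while 19 had an unadjusted p under 0.05 (18 higher, 1 lower), 23.5% of those tested beside 14.9% of all genes. DESeq2 called 1, Ndufv1, or 1.23% beside 7.58% of all genes, and limma voom called 0, beside 3.07%. The excess over all genes was lost in several settings. The 19 became 12 with total-count scaling (14.8% beside 14.0%), without GFP day 14 replicate 2 (14.8% beside 14.8%) and without Olig1 day 14 replicate 2 (14.8% beside 13.0%), and limma voom gave 16.0% beside 17.6%. Without Olig1 day 7 replicate 1 there were 35 (43.2% beside 14.0%). The 2 smallest p were those of Atp5j (1.08 ± 0.33, edgeR adjusted p = 0.136) and Cox7b (1.51 ± 0.47, edgeR adjusted p = 0.137). Cox7b did not overlap at either day, with day 14 values of 227, 286 and 173 CPM with Olig1 and 83.4, 147 and 159 CPM with GFP. Ndufv1 at -0.99 ± 0.32 (edgeR adjusted p = 0.146) was the 1 member with an unadjusted p under 0.05 on the lower side, and was lower with Olig1 in 6 of 6 libraries. The other members that led their complexes were Ndufs6 (1.30 ± 0.45), Sdhb (0.90 ± 0.35), Uqcrq (1.24 ± 0.43), Uqcr10 (0.83 ± 0.33), Cox6a1 (0.96 ± 0.37) and Atp5g3 (0.90 ± 0.32), each higher with Olig1, and Sdha (-0.70 ± 0.38), lower, with edgeR adjusted p from 0.169 to 0.415. A processed pseudogene close to Ndufs6, Ndufs6b, had 3231 counts over all libraries beside 41138 for Ndufs6, so reads could be split between them.

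Whether the fold change of Olig1 over GFP differed between the days was tested as the difference of the 2 log2 fold changes. It was negative, that is, lower at day 14, for 67 of 81 members, with a median of -0.79 beside 0.07 for all genes. These 67 include Cox6a2 and Cox7b2, whose direction was built into their inclusion through the Olig1 day 7 libraries. Of all genes 0.0% passed edgeR's test, and so did 0 members. DESeq2 and limma voom called 0 members as well, beside 3.52% and 0.0% of all genes. At an unadjusted p under 0.05 there were 14 members, all negative, 17.3% of those tested beside 9.9% of all genes. Those with the smallest p in their complexes were Uqcrq (-2.53 ± 0.86), Atp5g1 (-2.02 ± 0.77), Ndufa10, an accessory subunit of complex I (-2.42 ± 0.99), Cox7a2l (-1.75 ± 0.72) and Sdhb (-1.68 ± 0.71), with edgeR adjusted p from 0.356 to 0.461. This excess too was lost in several settings. The count of 14 became 6 without Olig1 day 7 replicate 2 (7.41% beside 7.97% of all genes), 7 with limma voom (8.64% beside 11.8%) and 8 with total-count scaling (9.88% beside 9.22%). Without GFP day 7 replicate 1, Olig1 day 14 replicate 1 or GFP day 14 replicate 3 it was 8 (9.88% beside 10.0% to 11.1%), without GFP day 7 replicate 2 or Olig1 day 14 replicate 3 it was 9 (11.1% beside 9.36% and 9.48%), and without Olig1 day 7 replicate 1 it was 25 (30.9% beside 9.67%). The median was -0.51 without Olig1 day 7 replicate 3, beside 0.33 for all genes, and -0.56 with limma voom, beside -0.20.

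Within the GFP control, subunits at day 14 were set against day 7. Of 81 members, 77 had a higher fitted level at day 14, among them all 36 of complex I, all 4 of complex II and all 9 of complex III. Another 2 had a lower one, while Cox6a2 and Cox7b2 had 0 counts in every GFP library. The median was 0.86, beside -0.14 over all genes. EdgeR called 0, as for all genes (0.0%), DESeq2 called 2 (Ndufv2 and Cox7a2l), 2.47% beside 4.27% of all genes, and limma voom called 0, beside 0.113%. At an unadjusted p under 0.05 there were 26, all higher at day 14, 32.1% of those tested beside 10.3% of all genes. All 3 day 14 libraries lay above all 3 day 7 libraries for 28 members, beside 3.96% of all genes, and below them for 1, Cox6b2, beside 10.5%. With total-count scaling, the median of all genes lay at -0.46 and that of the members at 0.52, so the members stood 0.98 above all genes, beside 1.00 with TMM.

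Ndufv2, an iron-sulfur subunit beside Ndufv1, stood at 1244, 846 and 693 CPM at day 14 and 382, 248 and 359 CPM at day 7 in GFP. The groups were well apart (1.80 ± 0.48, edgeR adjusted p = 0.442). Cox7a2l stood at 640, 353 and 178 CPM at day 14 and 104, 124 and 136 CPM at day 7 (1.90 ± 0.52, edgeR adjusted p = 0.442). Uqcrq stood at 685, 515 and 438 CPM at day 14 and 219, 133 and 226 CPM at day 7 (1.82 ± 0.62, edgeR adjusted p = 0.442). All 3 genes were higher in each day 14 library, as were Sdhb (1.48 ± 0.51) and Atp5f1 (1.42 ± 0.46), both with the same edgeR adjusted p of 0.442. Ganglion cell markers summed to 198 to 424 CPM at day 14 and 188 to 296 CPM at day 7 in these libraries, while microglia and macrophage markers summed to 0.471 to 6844 and 0.0533 to 1156 CPM. The part of the other cell types in these values was not tested. Because the Olig1 comparison at day 7 and this one share the GFP day 7 libraries, the members high in both rest in part on the same 3 low libraries. The count of 26 became 9 with total-count scaling, 11.1% beside 10.2% of all genes, so the excess was not seen under that scaling. It became 14 with DESeq2 (17.3% beside 12.8%), 15 with DESeq2 size factors (18.5% beside 10.0%), 17, 15 and 13 without GFP day 7 replicate 1, 2 and 3 (at least 16.0% beside at most 8.86%), 14 without GFP day 14 replicate 1 (17.3% beside 8.86%) and 16 without Olig1 day 14 replicate 2 (19.8% beside 10.8%).

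Within the Olig1 arm, the fold changes of day 14 over day 7 lay on both sides of 0. Of 81 members, 44 had a higher fitted level at day 14, with a median of 0.04 beside -0.01 for all genes. The direction of the median depended on the scaling: with DESeq2 size factors it was -0.18, with 35 members higher, beside -0.19 for all genes. With limma voom it was 0.31, with 61 members higher, beside -0.24 for all genes. EdgeR and DESeq2 called 0 members, beside 0.0334% and 4.19% of all genes, and limma voom called 2 (Cox6a2 and Cox7b2), 2.47% beside 2.09%. At an unadjusted p under 0.05 there were 6, 7.41% of those tested beside 11.8% of all genes. Libraries lay apart for 1 member with day 14 higher, beside 5.55% of all genes, and for 5 with day 14 lower (Sdhc, Uqcrb, Cox6a2, Cox7b2 and Atp5g1), beside 10.6%. Cox6a2 and Cox7b2 passed the low-count filter through the Olig1 day 7 libraries only, so their difference was built into their inclusion. The 6 at an unadjusted p under 0.05 became 14 and 18 without Olig1 day 7 replicate 1 and 3 (17.3% beside 9.85%, and 22.2% beside 14.2%). They became 4 without GFP day 7 replicate 3 or any GFP day 14 library (4.94% beside 12.6% to 15.2%) and 2 without Olig1 day 14 replicate 1 (2.47% beside 9.96%). There were 16 with limma voom (19.8% beside 16.4% of all genes), 3 with the stricter filter (3.85% beside 9.5%) and 2 with only these 2 groups (2.5% beside 11.6%).

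Uqcrb, a ubiquinone-binding subunit of complex III, stood at 206, 272 and 257 CPM at day 14 and 463, 471 and 981 CPM at day 7 in the Olig1 arm. The days did not overlap (-1.26 ± 0.45, edgeR adjusted p = 0.371), and the GFP libraries, at 267 to 352 CPM over both days, lay below all day 7 libraries of the Olig1 arm. Atp5g1 stood at 111, 182 and 236 CPM at day 14 and 254, 446 and 644 CPM at day 7 (-1.31 ± 0.55, edgeR adjusted p = 0.397). Ndufv2 stood at 1017, 1139 and 838 CPM at day 14 and 639, 140 and 991 CPM at day 7 (1.05 ± 0.47, edgeR adjusted p = 0.412). Sdhd had -1.72 ± 0.83 (edgeR adjusted p = 0.434) and turned to 0.15 without Olig1 day 7 replicate 2, which held 669 CPM beside 104 and 141 CPM in the other two.

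Several complex IV subunits exist as tissue-restricted isoforms beside a widely expressed one. Cox6a2, the heart and skeletal muscle form, was counted in the 3 Olig1 day 7 libraries and had 0 counts in the other 9. Those 3 libraries held 7.5, 235 and 6.83 CPM, so 1 library held most of the counts. Olig1 was at least 1250-fold higher than GFP at day 7 against a limit of 3 counts over the GFP group, and at least 130-fold without Olig1 day 7 replicate 2. Among reads of Cox6a2 and Cox6a1 together, Cox6a2 took 3.59%, 37.8% and 1.07% in those libraries, with a 95% Clopper-Pearson interval of 36.8% to 38.9% for the second. Cox7b2, a testis form, was also counted in those 3 libraries alone, at 4.57, 1.60 and 1.96 CPM (133 counts in all). That is at least 52.5-fold above the limit for GFP at day 7. Both genes passed the low-count filter through that group only, so a difference there was built into their inclusion and no p is given. Cox6a2 shares 70 exon bases with Itgad on the opposite strand, which had 1 count.

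**Figure D4:**
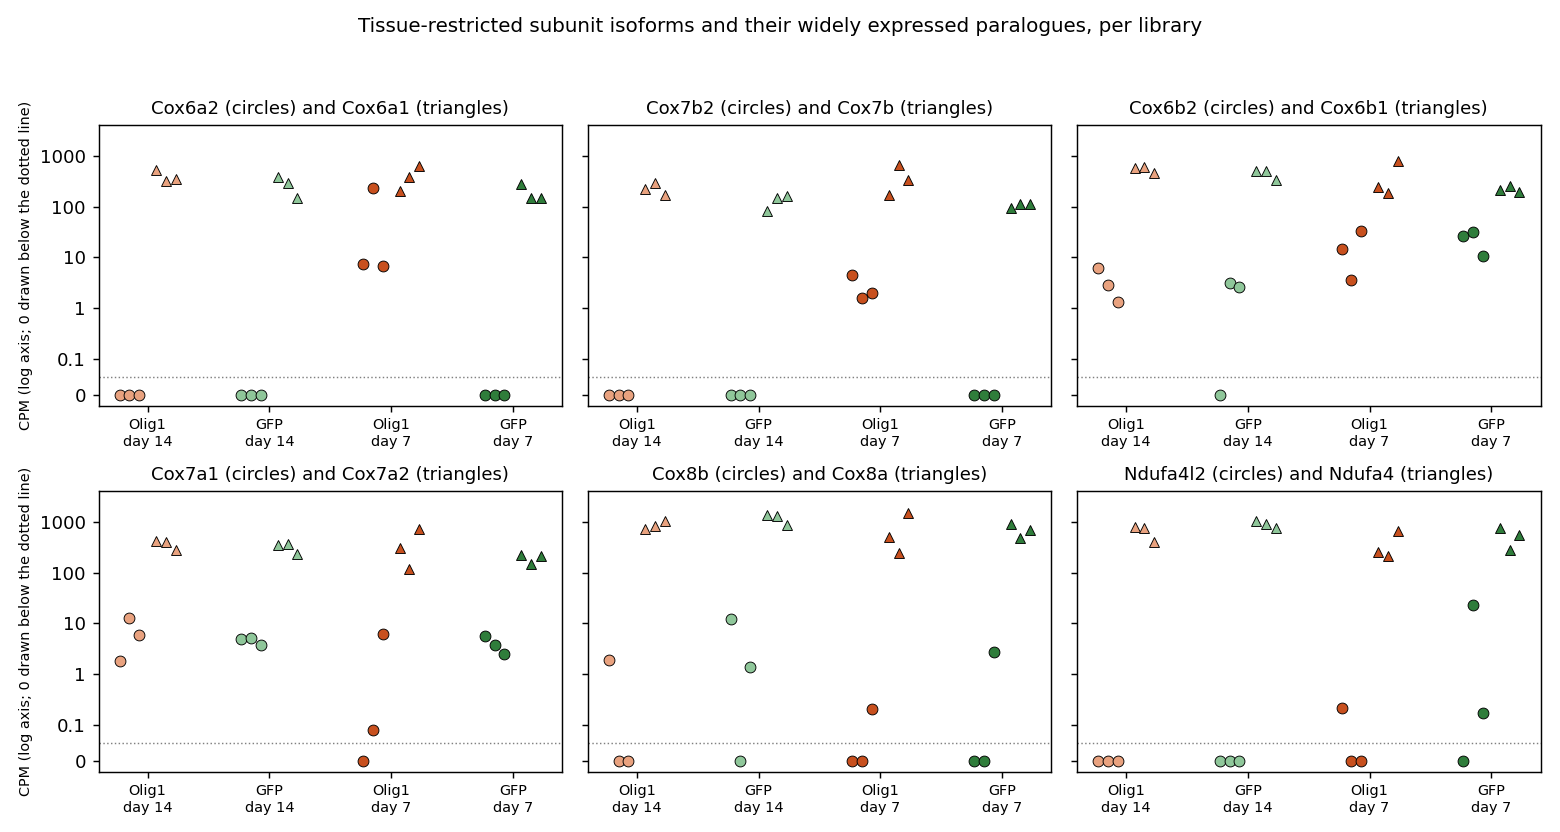
CPM per library (vertical axis, logarithmic, with 0 drawn below the dotted line) of 6 tissue-restricted or inducible isoforms (circles) and their widely expressed paralogues (triangles) in the 4 groups. Cox6a2 and Cox7b2 are above 0 only in the 3 Olig1 day 7 libraries, and Cox6b2 is lower at day 14 than at day 7 in GFP.

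Cox6b2, another testis form, was lower in each GFP library at day 14 than at day 7 but did not pass edgeR's test. Its level was 6.30, 2.93 and 1.33 CPM in Olig1 at day 14, 0, 3.08 and 2.67 CPM in GFP at day 14, 14.4, 3.67 and 32.5 CPM in Olig1 at day 7, and 26.96, 31.04 and 10.5 CPM in GFP at day 7. As a share of Cox6b2 and Cox6b1 reads it was 0.286% to 1.09% in Olig1 and 0 to 0.801% in GFP at day 14, and 1.94% to 5.61% in Olig1 and 5.04% to 11.4% in GFP at day 7. The shares of the 2 days did not overlap in either arm. The CPM of the 2 days overlapped in Olig1 and not in GFP, where the log2 fold change of day 14 over day 7 was -3.18 ± 1.80 (edgeR adjusted p = 0.608). Cox6b1 itself was 1.26 ± 0.48 higher at day 14 in GFP (edgeR adjusted p = 0.442), which enters the share.

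The remaining tissue-restricted or inducible isoforms were low or sporadic. Ndufa4l2, the hypoxia-inducible paralogue of Ndufa4, had 427 of its counts in GFP day 7 replicate 2 (23.4 CPM), 4 and 3 counts in 1 other library each, and 0 elsewhere, and it did not pass the filter. Ndufa4 stood between 216 CPM and 1032 CPM. Cox7a1, the muscle form of subunit 7a, was counted in 11 of the 12 libraries. It stood at 0 to 13.0 CPM and took at most 3.18% of the reads of Cox7a1 and Cox7a2. Cox8b, the muscle form of subunit 8, had counts in 5 of the 12 libraries, at most 12.2 CPM, against 248 to 1485 CPM for Cox8a. Among the 3 genes for the c subunit of the ATP synthase, whose mature proteins are identical and whose import signals differ, Atp5g3 supplied 52.2% to 79.7% of the CPM, Atp5g1 13.0% to 33.5% and Atp5g2 4.0% to 17.9%. The Atp5g2 share was 7.73% to 8.41% in Olig1 and 11.5% to 17.9% in GFP at day 7, without overlap, while at day 14 the groups overlapped.

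The mitochondrially encoded subunits were set beside the nuclear ones. The 13 genes summed to 100100, 38090 and 84200 CPM in Olig1 and 30030, 43270 and 38730 CPM in GFP at day 14, and to 24410, 20850 and 59740 CPM in Olig1 and 53170, 42690 and 47790 CPM in GFP at day 7. Of 12 tested, 11 had a higher fitted level with Olig1 at day 14 (median 0.93) and 4 at day 7 (median -0.19), and 0 passed edgeR's test at either day, with 4 at day 14 (33.3% beside 10.4% of all genes) and 1 at day 7 (8.33% beside 13.9%) at an unadjusted p under 0.05. The ratio of nuclear to mitochondrially encoded sums was 0.284, 0.821 and 0.330 in Olig1 and 1.03, 0.718 and 0.593 in GFP at day 14, and 0.945, 1.26 and 0.666 in Olig1 and 0.395, 0.395 and 0.427 in GFP at day 7. At day 7 the Olig1 ratios all lay above those of GFP, and at day 14 the groups overlapped. The smallest p over the mean of both days were those of mt-Nd2 (1.02 ± 0.36, edgeR adjusted p = 0.177) and mt-Nd1 (0.69 ± 0.27, edgeR adjusted p = 0.230), which encode membrane-arm subunits of complex I.

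**Figure D5:**
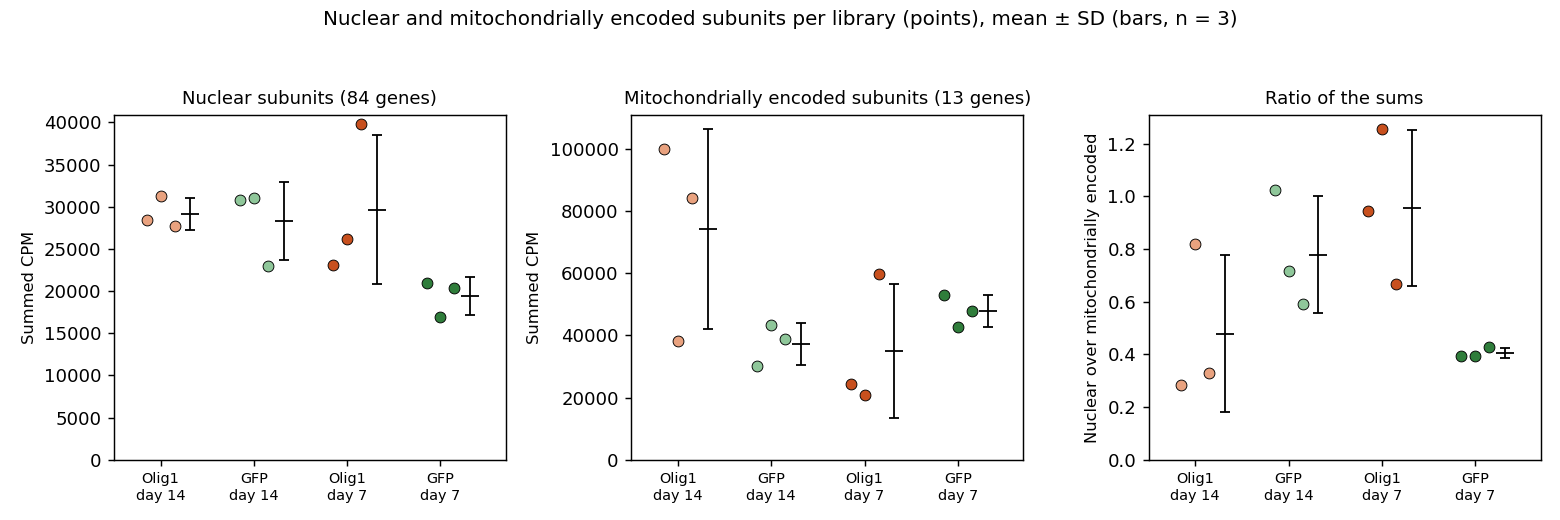
Summed CPM of the 84 nuclear subunit genes (left), summed CPM of the 13 mitochondrially encoded subunit genes (middle) and the ratio of the 2 sums (right) in each library (points), with the mean and SD of 3 libraries beside them; all axes start at 0. At day 7 the ratios are 0.666 to 1.26 with Olig1 and 0.395 to 0.427 with GFP.

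Other genes of the pathway, from lists chosen by function, had 0 members called by edgeR in any comparison. At day 7, the medians of Olig1 over GFP were 0.01 for 15 assembly factors of complex I, 0.21 for 4 of complex II, 0.45 for 6 of complex III, 0.25 for 19 of complex IV and -0.50 for 3 of complex V. They were 0.80 for 7 pathway genes outside the name pattern, 0.46 for 9 carriers, -0.10 for 17 genes of the TCA cycle and -0.45 for 13 regulators of mitochondrial biogenesis, of which 9 had a lower fitted level with Olig1. At an unadjusted p under 0.05 these 9 lists held 13 of 93 genes tested at day 7 (14.0% beside 13.9% of all genes) and 3 at day 14 (3.23% beside 10.4%), near and below the share of all genes. At day 14 their medians ran from -0.16 for the regulators to 0.58 for the pathway genes outside the pattern.

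Over the mean of both days, the leading pathway genes were Atpif1, the inhibitor of the ATP synthase (1.19 ± 0.37, edgeR adjusted p = 0.138), and Cycs, cytochrome c (1.12 ± 0.39, edgeR adjusted p = 0.174). Cycs stood at 322 ± 186 CPM in Olig1 and 198 ± 61.8 CPM in GFP at day 14, and at 288 ± 109 CPM in Olig1 and 119 ± 72.3 CPM in GFP at day 7 (SD, n = 3 each). Among carriers, Vdac3, an outer-membrane channel, had 1.43 ± 0.44 and Mpc2, of the pyruvate carrier, 0.85 ± 0.32. In the TCA cycle, Suclg1 had 0.99 ± 0.41 and Dlst 2.12 ± 1.11. Among assembly factors the leading values were Ndufaf3 (1.30 ± 0.55) and Nubpl (2.42 ± 1.37) for complex I, Sdhaf4 (0.19 ± 0.40) and Sdhaf3 (0.43 ± 1.00) for complex II, and Uqcc2 (0.52 ± 0.35) and Lyrm7 (0.96 ± 1.19) for complex III. For the later complexes they were Cox10 (2.55 ± 1.44) for complex IV, and Atpaf1 (1.26 ± 0.81) and Atpaf2 (-0.53 ± 1.46) for complex V. EdgeR adjusted p ran from 0.137 to 0.944 over these 13 carrier, TCA and assembly genes, none of which passed.

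Taco1, a translational activator of the mitochondrially encoded Cox1, was counted in 3 of the 6 Olig1 libraries, at 2.91, 0 and 1.06 CPM at day 14 and 0, 0 and 3.24 CPM at day 7, with 0 in all 6 GFP libraries. It passed the low-count filter through Olig1 libraries only, so no p is given. Tfb1m, a methyltransferase of mitochondrial ribosomal RNA, stood at 4.18 ± 3.79 CPM in Olig1 and 0 CPM in GFP at day 14, and at 8.49 ± 8.85 CPM in Olig1 and 6.90 ± 3.59 CPM in GFP at day 7 (edgeR adjusted p = 0.138). Ppargc1b, a coactivator of mitochondrial genes, lay lower with Olig1, at 0.116 ± 0.121 CPM in Olig1 and 18.1 ± 10.2 CPM in GFP at day 14, and 6.27 ± 5.22 CPM in Olig1 and 12.1 ± 18.5 CPM in GFP at day 7 (-4.02 ± 1.46, edgeR adjusted p = 0.197).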

How the data were processed

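Counts were deposited by the authors as raw whole numbers per Ensembl gene, made with FastQC, HISAT2 and HTSeq on mm10 per the submitters' processing notes; their versions, the annotation and whether strand was used were not given in the sources used here. The series table was used, since 4 of the files per library were truncated. Symbols, gene types and exon lengths came from GENCODE M21.

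The rule uses names and gene types alone, but the members and lists were chosen with earlier results of these data known. EdgeR 4.0.16 (R 4.3.3) fitted 1 quasi-likelihood model of 4 groups to all 12 libraries, with TMM scaling, a minimum count of 10 (filterByExpr), 14985 genes tested and Benjamini-Hochberg adjustment over all of them at 0.05, for 6 contrasts. The SE of an edgeR log2 fold change was back-calculated from the test, as its absolute value over the square root of the F statistic. Alternatives were DESeq2 1.42.0, limma 3.58.1 (voom with sample weights), other scalings and filters, a replicate block, fits on only the groups compared and leaving out each library. Total counts of 12534515 to 27602459 set the counting precision; intervals are Clopper-Pearson at 95% and cover counting error only, as PCR copies are not independent molecules. Of 84 members, Ndufa4l2, Cox8c and the second Atp5o entry did not pass the filter. Exons of 28 members overlap those of another gene.

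The genes named were those with the smallest p in each complex and comparison, the highest level per kb in each complex, a panel of isoforms, and the 2 smallest p of each other list over the mean of both days. Other genes named, among them those listed where libraries did not overlap, were chosen after their values were seen.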

Additional observations from a re-analysis of the deposited data

Results flagged for a closer look

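The fitted log2 fold change of Olig1 over GFP for Uqcrfs1, the Rieske protein of complex III, was negative at day 14 and positive at day 7. It was -0.58 ± 0.63 at day 14 and 1.97 ± 0.65 at day 7 on the log2 scale, and all Olig1 libraries lay below GFP at day 14 and above GFP at day 7. The difference between the days was -2.55 ± 0.90 and did not pass edgeR's test (adjusted p = 0.363). The day 14 value was smaller than its SE, so a change of direction was not established. Uqcrfs1 and Atp5f1 were picked after their values were seen, and the share of all genes with this arrangement was not counted. Uqcrfs1 stood at 244, 207 and 285 CPM in Olig1 and 479, 301 and 309 CPM in GFP at day 14, and at 179, 761 and 300 CPM in Olig1 and 108, 168 and 160 CPM in GFP at day 7.

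Atp5f1, the b subunit of the ATP synthase, showed the same arrangement of libraries, with -0.72 ± 0.45 at day 14 and 0.76 ± 0.45 at day 7. Its difference between the days was -1.49 ± 0.64, which did not pass edgeR's test (adjusted p = 0.469). Atp5f1 stood at 786, 433 and 837 CPM in Olig1 and 885, 1344 and 1048 CPM in GFP at day 14, and at 865, 706 and 655 CPM in Olig1 and 341, 595 and 582 CPM in GFP at day 7.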

How the results depend on the processing

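Where edgeR called 0 members, DESeq2 called 6 for Olig1 over GFP at day 7 (7.41% beside 6.21% of all genes), 1 over the mean of both days (1.23% beside 7.58%) and 2 for day 14 over day 7 in GFP (2.47% beside 4.27%). Limma voom called 2 at day 7 (2.47% beside 2.87%) and 2 for day 14 over day 7 in Olig1 (2.47% beside 2.09%). Each time these were Cox6a2 and Cox7b2, which passed the low-count filter through the Olig1 day 7 libraries only. Without a filter on low counts edgeR called 3 at day 7 (Cox6a2, Cox7b and Uqcrq, 3.66% beside 0.871%), 1 over the mean (Cox7b, 1.22% beside 1.6%) and 1 in Olig1 over time (Cox6a2, 1.22% beside 0.236%). The cause was not tested. Leaving out 1 library at a time gave 0 to 1 called at day 7 (Uqcrq, without Olig1 day 7 replicate 1, 1.23% beside 0.109% of all genes). It gave 0 in the other 5 comparisons, beside at most 0.817% of all genes. Sdhd in Olig1 over time ran from -2.21 to 0.15 over these settings, and turned positive without Olig1 day 7 replicate 2. With TMM-scaled library sizes the mean summed level was 31200 CPM in Olig1 at day 14 and 16890 CPM in GFP at day 7. With the replicate block 0 members were called in all 6 comparisons, beside at most 0.427% of all genes. At an unadjusted p under 0.05 there were 24 for Olig1 over GFP at day 7 (29.6% beside 10.8% of all genes) and 2 at day 14 (2.47% beside 7.43%). Libraries of the same number did not deviate together over all genes (correlations -0.0657 to 0.0441 over 18 pairs, 0 over 0.1). Libraries of different numbers gave -0.0612 to 0.0747. The deviations may also hold differences in cell mix between pools, so this check cannot exclude a shared batch or animal. Over the genes named, 865 values kept direction and side of the threshold, 17 moved past it and 1 reversed. Depth limits chiefly the isoforms with few counts, since 76 of 84 members had counts in all libraries.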
